A study of Mus musculus with 8 samples.

Results

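Cholesterol synthesis, uptake and transport was followed across the 8 arrays of the series through 29 genes. They were listed by name for their place in the pathway, with earlier results of these data known. The list held 18 enzymes in pathway order from Acat2 to Dhcr7, and 11 genes of sterol sensing, intracellular transport, storage, efflux and protein turnover. Probes were matched to these genes through their transcript accessions, and 28 of the 29 had a probe. No probe was matched to Acat2, which was not analysed here. All 28 measured genes were well above background on all 8 arrays and entered the test, among 25355 genes and unnamed transcripts tested of 45616 on the array.

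TEC71 is an immortalized mouse cell line from medullary thymic epithelium, grown in medium with 10% serum, which itself carries cholesterol in lipoproteins. The knocked-in Gtf2i T1211A allele was carried by clone 1, hybridized to 3 arrays, and by clone 3, hybridized to 2. The knock-in control (3 arrays) was the same line transfected with Cas9n (a Cas9 nickase) and a single guide RNA. Each knock-in group was a single clone, so what the allele did and what is particular to a clone cannot be told apart, and nothing in the labels says that the arrays of a group came from separate cultures. The p-values below therefore measure the spread between these arrays, which may be technical. In bulk RNA of this kind, fewer cells expressing a gene and less RNA per cell cannot be told apart.

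Cells make cholesterol from acetyl-CoA through mevalonate, the isoprenoid farnesyl diphosphate and squalene, which is closed into the sterol ring of lanosterol and then trimmed to cholesterol. When membrane sterol is low, Scap carries the transcription factor SREBP2 (made from Srebf2) to the Golgi for cleavage, and the freed factor raises the synthesis enzymes, while Insig proteins hold the complex back when sterol is ample. Oxysterols act on LXR nuclear receptors, which raise the efflux pumps Abca1 and Abcg1 and the ubiquitin ligase Mylip.

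Promoters of 4 genes that were higher in both clones are shown because they include an early mevalonate enzyme, a sterol ring enzyme, the SREBP2 gene itself and an efflux pump. Each is the 250 bases before the gene's start from RefSeq (GRCm38.p6), written 5′ to 3′ on the gene's own strand. They lie at chr13:119690101-119690350 on the plus strand (Hmgcs1), chr1:169969206-169969455 on the minus strand (Hsd17b7), chr15:82147019-82147268 on the plus strand (Srebf2) and chr4:53159896-53160145 on the minus strand (Abca1). Capitals mark matches on either strand to the sterol regulatory element type TCACNCCAC, the CCAAT box, the GC box GGGCGG and the E-box CACGTG, and no match overlaps another in these windows.
Hmgcs1: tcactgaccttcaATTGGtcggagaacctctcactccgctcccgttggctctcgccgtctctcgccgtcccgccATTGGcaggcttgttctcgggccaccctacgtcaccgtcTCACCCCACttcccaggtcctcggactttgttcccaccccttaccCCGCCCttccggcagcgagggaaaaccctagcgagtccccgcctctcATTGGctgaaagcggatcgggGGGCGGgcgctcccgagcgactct
Hsd17b7: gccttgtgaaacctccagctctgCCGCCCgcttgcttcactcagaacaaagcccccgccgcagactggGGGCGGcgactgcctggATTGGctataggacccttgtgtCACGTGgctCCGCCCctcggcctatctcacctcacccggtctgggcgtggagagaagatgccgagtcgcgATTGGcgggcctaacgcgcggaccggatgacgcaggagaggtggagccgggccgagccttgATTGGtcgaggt
Srebf2: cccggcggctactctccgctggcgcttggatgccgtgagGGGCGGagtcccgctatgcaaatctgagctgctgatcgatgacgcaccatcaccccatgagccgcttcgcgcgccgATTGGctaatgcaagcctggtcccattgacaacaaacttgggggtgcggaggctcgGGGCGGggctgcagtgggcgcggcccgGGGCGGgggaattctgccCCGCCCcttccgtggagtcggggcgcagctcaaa
Abca1: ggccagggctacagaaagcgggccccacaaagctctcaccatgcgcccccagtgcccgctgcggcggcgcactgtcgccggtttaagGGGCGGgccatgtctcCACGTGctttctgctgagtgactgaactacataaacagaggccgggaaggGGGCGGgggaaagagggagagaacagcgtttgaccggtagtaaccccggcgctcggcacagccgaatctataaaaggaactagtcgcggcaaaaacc
The Hmgcs1 window held the sterol element type match 137 to 129 bases before the start, 3 CCAAT boxes and 2 GC boxes. In the Hsd17b7 window there were 3 CCAAT boxes, 3 GC boxes and 1 E-box. The Srebf2 window held 1 CCAAT box and 4 GC boxes, and the Abca1 window held 2 GC boxes and 1 E-box.

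RefSeq windows were found for 23 of the 29 genes (29 windows, since some genes have several starts). The sterol element type letters were in 1 of these 29 windows, against 1.05% of all 32851 windows and 1.07% of the 14741 windows of tested genes. CCAAT was in 20 of 29 windows (69.0%), against 33.8% of all windows and 35.4% of those of tested genes. GGGCGG was in 23 windows (79.3%), against 32.7% of all and 52.2% of tested genes' windows, and CACGTG in 6 (20.7%), against 6.02% and 7.86%. Of the 8 genes with a window that were higher in both clones, 7 had a CCAAT box, 8 a GC box, 3 an E-box and 1 the sterol element type. Over all 23 genes with a window, 20 had a CCAAT box, 21 a GC box, 6 an E-box and 1 the sterol element type. These matches are a description of letters, and the lack of a match says only that those letters are not in the window. Sites for other factors, LXR among them, were not searched for.

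Levels are given as the log2 of the processed signal minus that of the array's 75th percentile, so 0 marks that percentile. Probes differ in how brightly they read, so a level is compared between arrays for 1 gene, never between genes. Differences are log2 differences of clone minus control. A gene is said to rise or fall where limma's adjusted p (Benjamini-Hochberg over all tested genes) was under 0.05. The 75th percentile signal was 268 to 377 and 55.3% to 59.3% of probes were above background per array. Gtf2i itself read 3.97, 3.88 and 4.01 in clone 1, 3.80 and 3.85 in clone 3, and 4.40, 4.46 and 4.37 in the control. It fell in clone 1 (-0.46, adjusted p = 0.00754) and in clone 3 (-0.59, adjusted p = 0.00421), and a probe does not read a point mutation. In both clones 4 of the 16 thymic epithelial markers were higher and 3 lower, against 11.3% and 12.2% of all tested genes. Of the 16 markers, 13 were tested, and Aire, Pax1 and Psmb11 did not enter the test. Their summed signal, relative to the 75th percentile, was 482 to 534 in clone 1, 499 to 552 in clone 3 and 427 to 540 in the control. Fibroblast marker sums were 0.599 to 0.759 in clone 1, 0.664 to 0.679 in clone 3 and 1.11 to 1.39 in the control. Of these 10 markers 5 were tested, and 3 (Pdgfra, Col1a1 and Postn) were lower in both clones, against 12.2% of all tested genes. Col1a1 and Postn were above background on the 3 control arrays and on no knock-in array. They entered the test only through the control, where they are high. T cell marker sums were 5.57 to 6.58 in clone 1, 5.58 to 6.59 in clone 3 and 3.89 to 4.56 in the control, with Cd3g and Cd8a above background on no array and Cd3e, Cd3d, Cd4 and Lck above it on all 8. Of these, Lck rose in clone 1 (0.96, adjusted p = 0.0010) and in clone 3 (1.14, adjusted p = 8.44e-04), and the others did not pass. Myeloid sums were 11.03 to 14.1 in clone 1, 12.4 to 13.2 in clone 3 and 9.51 to 12.9 in the control. Itgax, Adgre1 and Lyz2 were above background on no array, while Cd68 rose in clone 1 (1.36, adjusted p = 4.06e-05) and in clone 3 (0.66, adjusted p = 0.00443). Endothelial sums were 0.197 to 0.273 in clone 1, 0.255 to 0.261 in clone 3 and 0.232 to 0.305 in the control. Their part in the results was not tested.

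In clone 1, 17 of the 28 genes rose and 2 fell, while 9 did not pass; 31.1% of all tested genes passed in this comparison (14.7% higher, 16.5% lower). The median difference over the 28 was 0.43, against -0.05 over all tested genes. In clone 3, 9 rose, 5 fell and 14 did not pass, with 30.3% of all tested genes passing (13.3% higher, 17.0% lower), and the median was 0.24, against -0.04. Both comparisons use the same 3 control arrays. Passing in both clones with one sign were 9 genes that rose (11.3% of all tested genes did so) and 2 that fell (12.2%), together 11 of 28 against 23.5%. Clone 1 lay wholly above the control for 17 of the 28 genes and wholly below it for 4, against 21.2% and 25.3% of all tested genes. Clone 3 lay wholly above the control for 15 and wholly below it for 6, against 25.3% and 30.4%. All 5 knock-in arrays lay above all 3 control arrays for 15 of the 28 genes and below them for 4, against 17.4% and 20.9% of all tested genes.

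**Figure D1:**
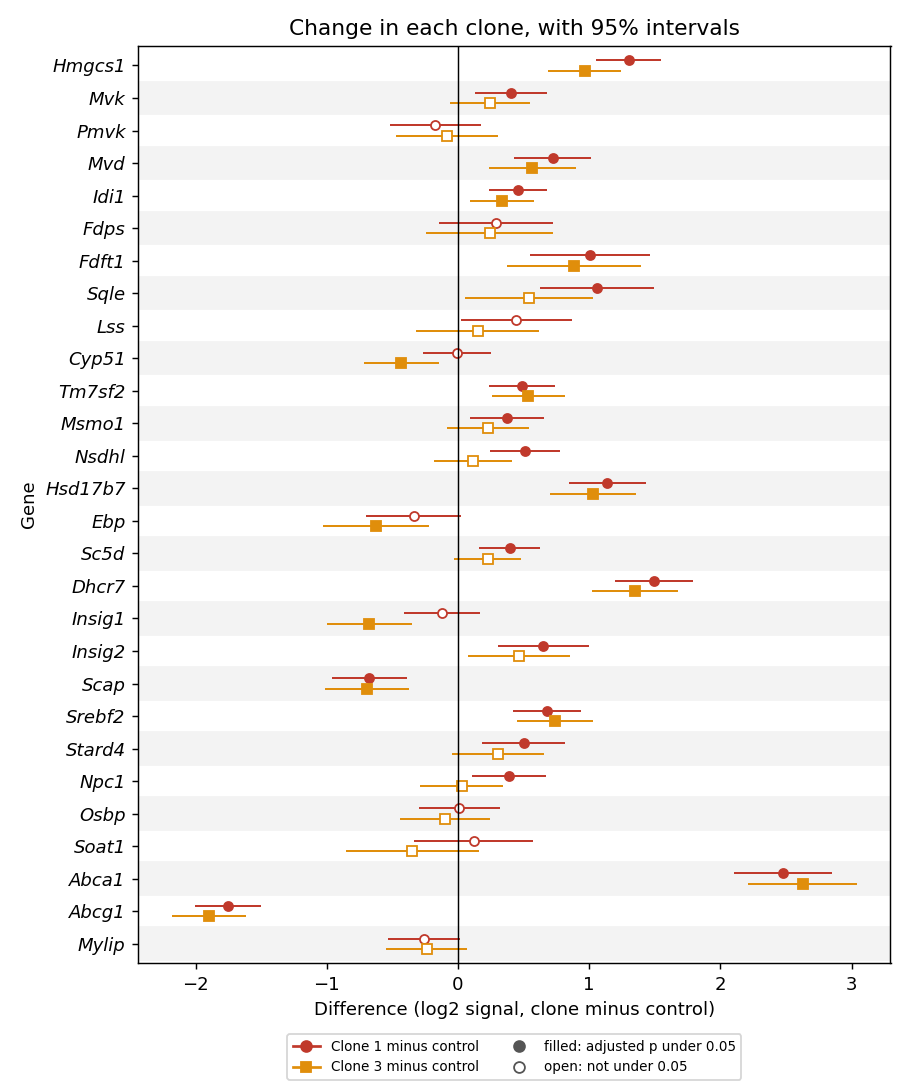
Log2 difference of clone minus control with 95% intervals for the 28 measured genes, clone 1 (circles) above clone 3 (squares), filled where the adjusted p was under 0.05. Abca1 lies furthest to the right (2.48 in clone 1, 2.63 in clone 3) and Abcg1 furthest to the left (-1.75 in clone 1, -1.90 in clone 3), while Dhcr7 and Hmgcs1 are at 1.50 and 1.30 in clone 1 and at 1.35 and 0.97 in clone 3.

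Among the 17 measured enzymes, 12 rose and none fell in clone 1 (median difference 0.46), and 7 rose and 2 fell in clone 3 (median 0.24). The same 7 rose in both clones: Hmgcs1, Mvd, Idi1, Fdft1, Tm7sf2, Hsd17b7 and Dhcr7. They run from the start of the mevalonate steps to the last reduction. In clone 1, 5 further enzymes rose (Mvk, Sqle, Msmo1, Nsdhl and Sc5d), and in clone 3 Cyp51 and Ebp fell. Pmvk, Fdps and Lss passed in neither clone.

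**Figure D2:**
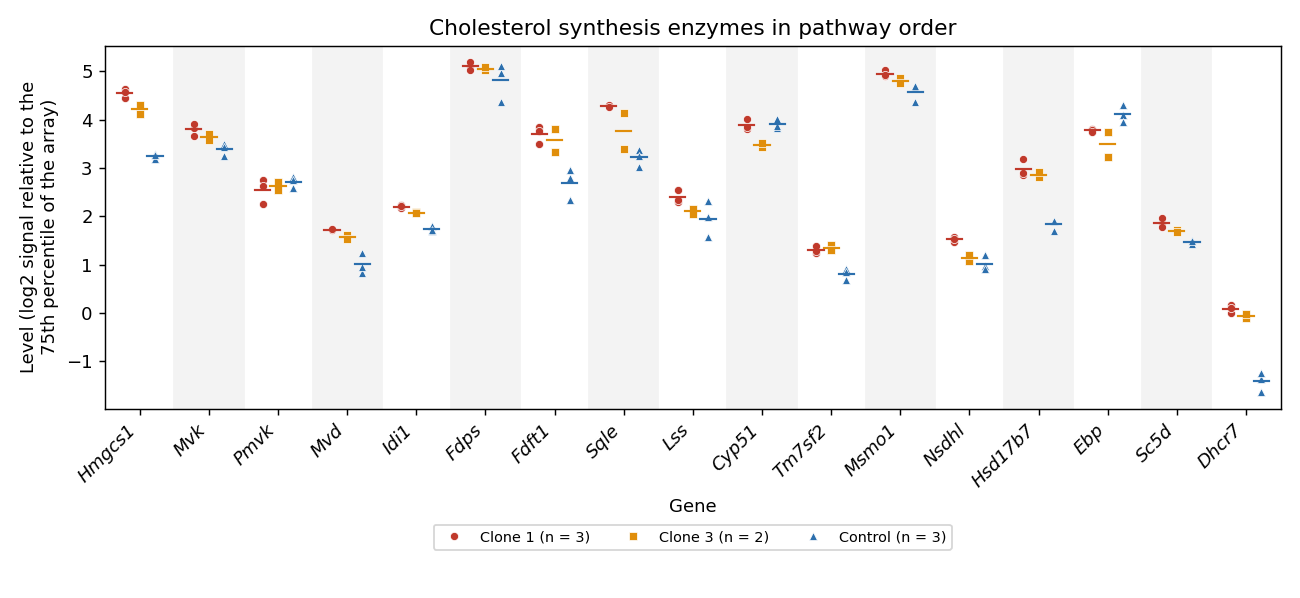
Level of each of the 17 measured enzymes on every array (log2 signal over the array's 75th percentile), in pathway order from left to right, with clone 1, clone 3 and control from left to right for each gene and bars at the group means. Hmgcs1, Fdft1, Hsd17b7 and Dhcr7 show every knock-in array above every control array, while Pmvk and Fdps overlap.

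Of the early mevalonate steps, Hmgcs1, the HMG-CoA synthase, read 4.62, 4.45 and 4.56 in clone 1, 4.31 and 4.11 in clone 3, and 3.18, 3.29 and 3.26 in the control. Every knock-in array lay above every control array, and clone 3 lay below clone 1. It rose 2.46-fold in clone 1 (log2 difference 1.30, SE 0.11, adjusted p = 4.64e-05) and 1.95-fold in clone 3 (0.97, SE 0.12, adjusted p = 5.67e-04). Mvd, the decarboxylase that yields isopentenyl diphosphate, read 1.73, 1.71 and 1.73 in clone 1, 1.61 and 1.53 in clone 3, and 0.82, 1.24 and 0.95 in the control. The groups did not overlap, and the control arrays were the most spread. Mvd rose by 0.72 in clone 1 (adjusted p = 0.00294) and by 0.57 in clone 3 (adjusted p = 0.0165), and its clone 3 call ended without clone 3 replicate 1 (adjusted p = 0.0796) or replicate 2 (0.0553). Mvk, mevalonate kinase, averaged 3.80 ± 0.13 in clone 1 (SD, n = 3), 3.64 ± 0.08 in clone 3 (n = 2) and 3.39 ± 0.13 in the control (n = 3). It rose in clone 1 alone by the test (0.41, adjusted p = 0.0299), and that call ended without control replicate 2 or 3 or clone 1 replicate 2 or 3 (adjusted p = 0.0605, 0.096, 0.0783 and 0.0968). Pmvk, the kinase after it, differed by -0.17 (95% interval -0.51 to 0.17) in clone 1 and -0.08 (-0.46 to 0.30) in clone 3.

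In the isoprenoid steps, Fdft1, the squalene synthase that commits farnesyl diphosphate to sterols, read 3.85, 3.75 and 3.48 in clone 1, 3.80 and 3.33 in clone 3, and 2.33, 2.95 and 2.78 in the control. The knock-in arrays were all above the control arrays. Fdft1 rose 2.01-fold in clone 1 (adjusted p = 0.00517) and 1.84-fold in clone 3 (adjusted p = 0.0172), the clone 3 call ending without clone 3 replicate 1 (0.65, adjusted p = 0.115). Idi1, the isomerase of isopentenyl diphosphate, read 2.17, 2.22 and 2.20 in clone 1, 2.09 and 2.06 in clone 3, and 1.70, 1.80 and 1.72 in the control. These were tight groups with no overlap. Idi1 rose by 0.46 in clone 1 (adjusted p = 0.00613) and 0.34 in clone 3 (adjusted p = 0.0399), and leaving out any of the 8 arrays ended the clone 3 call (adjusted p 0.0549 to 0.131). Fdps, farnesyl diphosphate synthase, differed by 0.29 in clone 1 and 0.24 in clone 3 with overlapping groups, control replicate 3 (4.35) being far below the other control arrays (4.97 and 5.11).

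The sterol ring and late steps held the enzyme with the largest rise of the 17 measured, Dhcr7. Dhcr7, the reductase of the final step, read 0.16, 0.00 and 0.09 in clone 1, -0.10 and -0.02 in clone 3, and -1.64, -1.36 and -1.24 in the control. It stood more than a log2 unit apart from the control on every knock-in array, 2.82-fold higher in clone 1 (1.50, SE 0.13, adjusted p = 5.44e-05) and 2.55-fold higher in clone 3 (1.35, SE 0.14, adjusted p = 2.33e-04). Hsd17b7, the sterol ketoreductase, read 2.85, 3.18 and 2.88 in clone 1, 2.82 and 2.90 in clone 3, and 1.89, 1.69 and 1.91 in the control. The clones overlapped each other and neither overlapped the control. It rose 2.20-fold in clone 1 (adjusted p = 2.55e-04) and 2.04-fold in clone 3 (adjusted p = 9.83e-04). Tm7sf2, a sterol ring reductase, read 1.23, 1.28 and 1.39 in clone 1, 1.40 and 1.31 in clone 3, and 0.69, 0.90 and 0.85 in the control, again without overlap with the control. It rose by 0.49 in clone 1 (adjusted p = 0.0093) and 0.54 in clone 3 (adjusted p = 0.0104), the clone 3 call ending without clone 3 replicate 1 (adjusted p = 0.0562).

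Squalene epoxidase, Sqle, read 4.27, 4.30 and 4.25 in clone 1, 4.13 and 3.39 in clone 3, and 3.38, 3.02 and 3.26 in the control. Clone 1 was tight and high, while clone 3 replicate 2 lay just above the highest control array. Sqle rose 2.08-fold in clone 1 (adjusted p = 0.00318) and did not pass in clone 3 (0.54, adjusted p = 0.086), where it passed without clone 3 replicate 2 (0.91, adjusted p = 0.0109). Nsdhl, a sterol dehydrogenase of the demethylation steps, read 1.58, 1.47 and 1.54 in clone 1, 1.07 and 1.19 in clone 3, and 0.96, 1.19 and 0.90 in the control. Clone 1 lay above all other arrays and clone 3 overlapped the control. It rose in clone 1 (0.51, adjusted p = 0.00942) and differed by 0.11 in clone 3 (95% interval -0.17 to 0.40). The methylsterol oxidase Msmo1 rose by 0.37 in clone 1 (adjusted p = 0.0447), a call that ended without any of the 8 arrays (adjusted p 0.0538 to 0.129). Sc5d, a sterol desaturase, rose by 0.39 in clone 1 (adjusted p = 0.0163), a call that ended without control replicate 2 (adjusted p = 0.0518) or clone 1 replicate 3 (0.0575). In clone 3 the differences were 0.23 for Msmo1 and 0.23 for Sc5d, and neither passed. Lss, the cyclase that makes lanosterol, differed by 0.44 in clone 1 (adjusted p = 0.1), and passed without control replicate 2 (0.62, adjusted p = 0.0276).

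Cyp51 and Ebp went the other way in clone 3. Cyp51, the lanosterol demethylase, read 4.02, 3.81 and 3.85 in clone 1, 3.42 and 3.51 in clone 3, and 3.82, 3.87 and 4.01 in the control. Clone 3 lay below all other arrays, and clone 1 overlapped the control. It fell in clone 3 (-0.43, SE 0.12, adjusted p = 0.0286), a call that ended without control replicate 2 or 3 or clone 3 replicate 1 or 2 (adjusted p = 0.0578, 0.0792, 0.121 and 0.0757). Ebp, the sterol isomerase, read 3.80, 3.78 and 3.75 in clone 1, 3.75 and 3.23 in clone 3, and 4.10, 3.94 and 4.29 in the control. All knock-in arrays lay below the control, clone 3 replicate 2 by far the most. Ebp fell in clone 3 (-0.62, adjusted p = 0.0262), a call that ended without control replicate 1 or 3 (adjusted p = 0.0601 and 0.0758) or clone 3 replicate 2 (-0.36, adjusted p = 0.18), and in clone 1 it differed by -0.34 (adjusted p = 0.139).

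Of the 4 sterol sensing genes, 2 changed in both clones, in opposite directions. Over all tested genes, 11.3% rose and 12.2% fell in both. Srebf2, which encodes SREBP2, read 1.71, 1.52 and 1.61 in clone 1, 1.72 and 1.62 in clone 3, and 0.99, 0.79 and 1.01 in the control. Both clones lay well above the control and overlapped each other. It rose 1.60-fold in clone 1 (0.68, SE 0.11, adjusted p = 0.00206) and 1.67-fold in clone 3 (0.74, SE 0.12, adjusted p = 0.00272). Scap, its escort to the Golgi, read 3.82, 3.50 and 3.72 in clone 1, 3.67 and 3.65 in clone 3, and 4.26, 4.30 and 4.51 in the control. Every knock-in array was below every control array. Scap fell to 0.626 of the control level in clone 1 (-0.68, adjusted p = 0.00356) and 0.618 in clone 3 (-0.70, adjusted p = 0.00588). Insig2, a retention protein of the complex, read 2.51, 2.60 and 2.96 in clone 1, 2.44 and 2.57 in clone 3, and 1.88, 2.20 and 2.04 in the control. No knock-in array reached down to the control. Insig2 rose in clone 1 (0.65, adjusted p = 0.0109), and in clone 3 it differed by 0.46 (adjusted p = 0.0664), passing without clone 1 replicate 3 (adjusted p = 0.0405). Insig1, its paralog and itself a known SREBP target, read -3.03, -3.07 and -3.33 in clone 1, -3.80 and -3.59 in clone 3, and -3.02, -3.10 and -2.95 in the control. Clone 3 was below all other arrays. Insig1 fell in clone 3 (-0.67, adjusted p = 0.00682) and differed by -0.12 in clone 1 (adjusted p = 0.519), and with normexp background correction the clone 3 difference was -0.19 (adjusted p = 0.369).

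**Figure D3:**
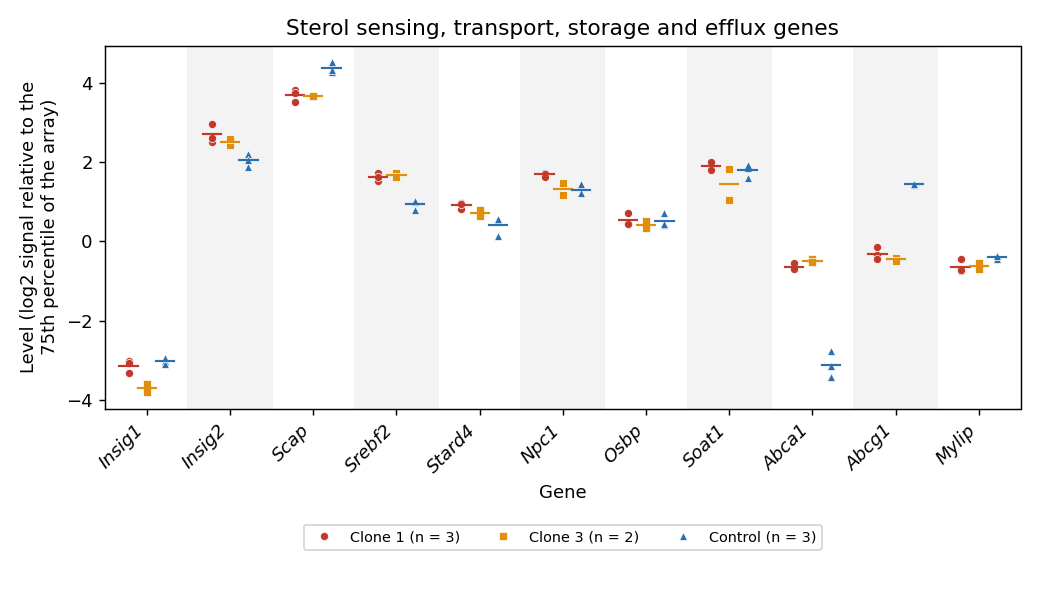
Level of the 11 sensing, transport, storage and efflux genes on every array (log2 signal over the array's 75th percentile), with clone 1, clone 3 and control from left to right for each gene and bars at the group means. Abca1 is far higher and Abcg1 far lower on all 5 knock-in arrays than on the 3 control arrays.

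Of the 4 genes of intracellular transport and storage, 2 rose in clone 1 and none passed in clone 3. Over all tested genes, 14.7% rose in clone 1 and 30.3% passed in clone 3. Stard4, a sterol carrier of the cytosol, read 0.95, 0.82 and 0.94 in clone 1, 0.78 and 0.64 in clone 3, and 0.51, 0.56 and 0.14 in the control. The groups did not overlap, and control replicate 3 was well below the others. Stard4 rose in clone 1 (0.50, adjusted p = 0.022), a call that ended without control replicate 3, clone 1 replicate 1 or clone 1 replicate 3 (adjusted p = 0.0563, 0.063 and 0.0653), and differed by 0.31 in clone 3 (adjusted p = 0.161). Npc1, which exports cholesterol from lysosomes, read 1.73, 1.70 and 1.63 in clone 1, 1.48 and 1.18 in clone 3, and 1.22, 1.22 and 1.45 in the control. Clone 1 lay above the rest and clone 3 overlapped the control. Npc1 rose in clone 1 (0.39, adjusted p = 0.0403), a call that ended without control replicate 1 or 2 (adjusted p = 0.114 and 0.115) or any clone 1 array (0.0736 to 0.101), and differed by 0.03 in clone 3. The oxysterol-binding protein Osbp differed by 0.01 (95% interval -0.29 to 0.31) in clone 1 and -0.10 (-0.43 to 0.24) in clone 3. Soat1, which esterifies cholesterol for storage, differed by 0.12 in clone 1 and -0.35 in clone 3, and its clone 3 arrays (1.83 and 1.05) were far apart. Without clone 3 replicate 1 the Soat1 difference in clone 3 was -0.74 (adjusted p = 0.0223).

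The efflux pumps had the largest differences of the 28, and in opposite directions. Abca1, which loads cholesterol onto apolipoprotein A-I, read -0.65, -0.70 and -0.56 in clone 1, -0.46 and -0.52 in clone 3, and -3.42, -3.14 and -2.78 in the control. The 5 knock-in arrays were close together and far above the control. Abca1 rose 5.57-fold in clone 1 (2.48, SE 0.16, adjusted p = 1.17e-05) and 6.18-fold in clone 3 (2.63, SE 0.18, adjusted p = 2.01e-05). With normexp background correction and an offset of 50, the difference was 1.42 in clone 1 and 1.52 in clone 3. Abcg1, the pump that passes cholesterol to mature HDL particles, read -0.34, -0.44 and -0.16 in clone 1, -0.43 and -0.49 in clone 3, and 1.47, 1.42 and 1.44 in the control. All knock-in arrays were far below the tight control arrays. Abcg1 fell to 0.296 of the control level in clone 1 (-1.75, SE 0.11, adjusted p = 8.24e-06) and 0.268 in clone 3 (-1.90, SE 0.12, adjusted p = 1.27e-05). Mylip, an LXR-induced ubiquitin ligase, differed by -0.26 in clone 1 (adjusted p = 0.135) and -0.24 in clone 3 (adjusted p = 0.209), although all 5 knock-in arrays (-0.74 to -0.46) were below all 3 control arrays (-0.44 to -0.34).

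Array codes in the labels begin with 1 on the 3 control arrays and clone 1 replicate 1, and with 2 on the other 4 arrays, so control and clone 3 share no code. With this first number as a block, 9 of 28 genes passed in clone 1, 5 in clone 3 and 5 in both with one sign. Over all tested genes, 17.2% passed in clone 1, 8.16% in clone 3 and 7.76% in both in this fit. Of the 5 members in both, Hmgcs1, Dhcr7, Srebf2 and Abca1 were higher and Abcg1 lower. Their adjusted p in clone 1 was 0.00128, 0.00169, 0.0158, 6.90e-04 and 4.51e-04, and in clone 3 it was 0.0205, 0.0136, 0.0452, 0.00342 and 0.00202. Hsd17b7, Fdft1, Mvd and Sqle also rose in clone 1 in this fit, and their clone 3 differences of 0.85, 1.11, 0.57 and 0.53 did not pass. Scap lost its call in both clones, with a difference of -0.54 in clone 1 (adjusted p = 0.0699) and -0.49 in clone 3 (adjusted p = 0.24). So did Idi1 (adjusted p = 0.0732 in clone 1, 0.385 in clone 3) and Tm7sf2 (0.118 in clone 1, 0.262 in clone 3). The clone 1 calls of Mvk, Msmo1, Nsdhl, Sc5d, Insig2, Stard4 and Npc1 were lost as well (adjusted p 0.0607 to 0.313). The falls of Cyp51, Ebp and Insig1 in clone 3 also lost their calls (adjusted p = 0.521, 0.306 and 0.24). Among the 4 arrays whose code begins with 1, where clone 1 has a single array assumed to vary like the others, 8 of the 28 passed, against 14.2% of all tested genes, and the difference was 1.38 for Hmgcs1, 1.57 for Dhcr7, 0.78 for Srebf2, 2.46 for Abca1 and -1.78 for Abcg1. Gtf2i differed by -0.44 in clone 1 (adjusted p = 0.0789) and -0.56 in clone 3 (adjusted p = 0.125) with the block.

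Between the clones, none of the 28 genes passed, where 0.0749% of all tested genes did (19 of 25355, 0.0434% higher and 0.0316% lower in clone 3). At an unadjusted p under 0.05 there were 6 of the 28 (Hmgcs1, Sqle, Cyp51, Nsdhl, Insig1 and Npc1), or 21.4%, against 10.8% of all tested genes. All 6 were lower in clone 3. The difference of clone 3 minus clone 1 was below 0 for 23 of the 28 genes with a median of -0.15, while 49.5% of all tested genes were below 0 with a median of 0.0027. Other scalings, filters and left-out arrays gave 22 to 26 genes below 0. Clone 3 lay wholly below clone 1 for 13 genes and wholly above it for 1, against 14.4% and 14.1% of all tested genes. The genes share arrays and pathway, so this count is a description. The 95% intervals of the difference ran from -0.87 to -0.24 for Insig1, -1.0 to -0.04 for Sqle, -0.70 to -0.15 for Cyp51, and -0.26 to 0.56 for Abca1.

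**Figure D4:**
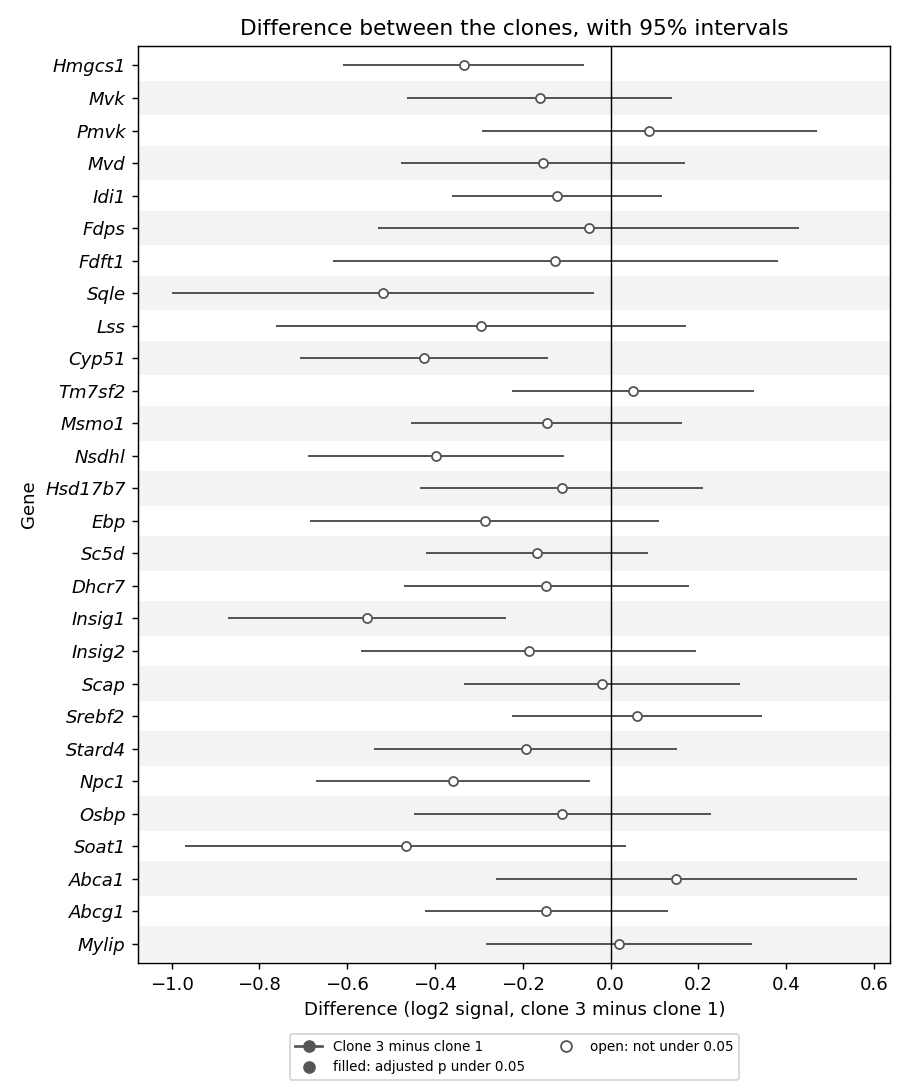
Log2 difference of clone 3 minus clone 1 with 95% intervals for the 28 measured genes. Open circles mark that none had an adjusted p under 0.05, and 23 of the 28 lie left of 0.

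Several genes were read by more than 1 probe, and the values above come from the brightest. Of 13 genes with more than 1 probe above background on all 8 arrays, all probes had one sign in 11 for clone 1 and in 9 for clone 3. In clone 1 the other probes of Fdft1, Tm7sf2 and Hsd17b7 differed from the control by 1.13, 0.89 and 1.22, and in clone 3 by 1.12, 0.91 and 0.95. Those of Insig2 gave 0.56 and 0.86 in clone 1 and 0.50 and 0.87 in clone 3. For Mvk the other probe read 0.01 in clone 1 and -0.30 in clone 3, and for Stard4 it read 0.07 in clone 1 and 0.10 in clone 3. The other Cyp51 probe differed by 0.12 in clone 1 and -0.09 in clone 3, and the other Ebp probe by -0.28 in clone 1 and -0.46 in clone 3. For Pmvk the other probe differed by -0.24 in clone 1 and -0.67 in clone 3. It read 0.47 to 1.27 on the knock-in arrays, all below the control arrays (1.42 to 1.58). Dhcr7, Hmgcs1, Srebf2, Scap and Abcg1 rest on a single probe, as do Mvd, Idi1, Fdps, Sqle, Nsdhl, Sc5d, Insig1, Npc1 and Mylip. A further Abca1 probe was above background on no array.

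**Figure D5:**
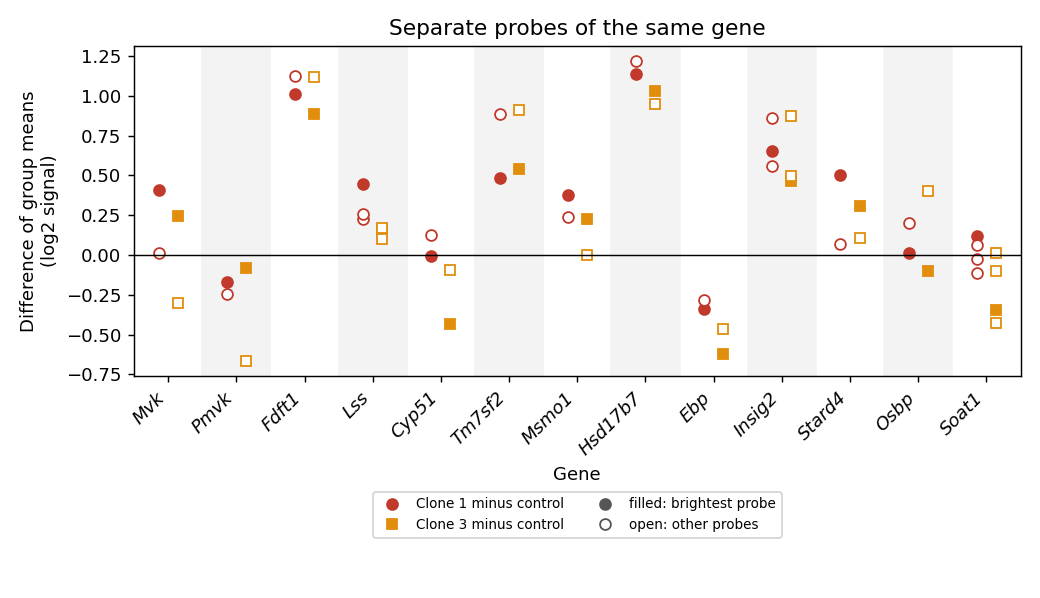
Difference of group means (log2 signal, clone minus control) for each probe of the 13 genes with more than 1 probe above background on all 8 arrays, clone 1 left of clone 3, filled for the brightest probe and open for the others. Probes of Fdft1, Tm7sf2, Hsd17b7 and Insig2 all lie above 0, while those of Mvk, Cyp51, Msmo1, Osbp and Soat1 fall on both sides in at least 1 clone.

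A wider set of 50 cholesterol genes outside the 28 was described in the same way, and 46 were tested. In both clones 10 rose and 8 fell, against 11.3% and 12.2% of all tested genes, and 28 did not pass with one sign. Among other sterol and prenyl enzymes 3 of 13 rose and 3 fell in both, among genes of SREBP control and enzyme turnover 0 of 12 rose and 1 fell, among uptake and transport genes 5 of 12 rose and 2 fell, and among oxysterol, LXR and efflux genes 2 of 9 rose and 2 fell. Ch25h, which makes the oxysterol that holds SREBP2 back, read -2.39, -2.08 and -2.17 in clone 1, -2.58 and -2.16 in clone 3, and 0.94, 0.99 and 0.90 in the control, without overlap. It fell by 3.16 in clone 1 (adjusted p = 1.3e-06) and by 3.31 in clone 3 (adjusted p = 2.5e-06) on the log2 scale. Gramd1b, which carries cholesterol from the plasma membrane to the endoplasmic reticulum, read -1.76, -1.50 and -1.67 in clone 1, -1.92 and -1.13 in clone 3, and -4.40, -4.77 and -4.53 in the control. It was above background on all 5 knock-in arrays and 2 of 3 control arrays, so it entered the test through the clones, where it is high, and its control level is close to background. The fitted difference was 2.93 in clone 1 (adjusted p = 1.77e-05) and 3.04 in clone 3 (adjusted p = 3.39e-05), and its size depends on the background correction, being 1.05 in clone 1 and 1.17 in clone 3 with normexp. The next largest were the farnesyltransferase subunit Fntb, the pump Abca7, the sterol carrier Gramd1c, the enzyme scaffold Erg28, the pump Abcg4 and the thiolase Acat1. Their differences in clone 1 were 1.49, 1.31, 1.02, 0.99, 1.03 and -0.80, and in clone 3 they were 1.44, 1.06, 1.03, 1.01, 0.97 and -0.83. The Acat1 call in clone 3 ended without clone 3 replicate 2 (-0.55, adjusted p = 0.0661). With the array code as a block, Ch25h, Gramd1b, Abca7 and Abcg4 were the 4 of 46 that passed in both clones. In that fit 7.76% of all tested genes did so, a share near that of the wider set.

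Srebf1, the paralog of Srebf2, was singled out for its role after its values were seen. It differed by -0.09 in clone 1 (adjusted p = 0.718) and -0.14 in clone 3 (adjusted p = 0.579), with both clones overlapping the control, and did not pass.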

How the data were processed

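Total RNA (200 ng) of 8 samples was labelled with Cy3 and hybridized to 8 arrays on 1 slide, all with 1 scan time per the file headers. The deposited files hold the authors' scanner output from Agilent Feature Extraction, given as version 11.5.11 in the submitters' processing notes and 11.5.1.1 in the file headers. The processed signal is an intensity on a linear scale, background-corrected by the software per the file headers, and the deposited flags mark spots above background, outliers and saturation. From the deposited intensity, log2 values were taken and each array's 75th percentile over probe means was subtracted. Control spots (3671 of 62976) and 114 to 242 outlier spots per array were left out, and no spot was saturated. Each gene was read by its brightest probe, tested where at least 1 group had it well above background throughout (25355, of which 14724 had a symbol). Probes were named by accession through RefSeq (GRCm38.p6), which named 32994 of 56605. No array coordinates are given, since the files use another build.

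limma 3.58.1 (R 4.3.3) fitted the 3 groups together with 5 residual degrees of freedom, two-sided, Benjamini-Hochberg over all tested genes, threshold 0.05. The fit was tested on simulated data. Precision is limited by the number of arrays. The genes and lists were chosen with earlier results of these data known. All members were accounted for by name. Related genes were named where they passed in both clones with one sign, up to the 8 with the largest smaller change. Alternatives were normexp, quantile and median scaling, no filter or a filter on all 8 arrays, mean of probes, variance trend, array weights, the array code as a block, a threshold of 0.01, and each array left out.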

Additional observations from a re-analysis of the deposited data

How the results depend on the processing

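Of the 28 genes, the number that passed in clone 1 was 19, and it was 9 with the array code as a block and 8 on the arrays whose code begins with 1, where the share of all tested genes was 31.1%, 17.2% and 14.2%. In clone 3 it was 14, against 9 with no filter on background, 5 with the block and 8 at an adjusted p under 0.01, with 30.3%, 11.2%, 8.16% and 17.1% of all tested genes passing. In both clones with one sign it was 11, against 5 with the block and 7 at the stricter threshold, with 23.5%, 7.76% and 13.7% of all tested genes. For the wider set it was 18 of 46, against 4 of 46 with the block, beside the same 23.5% and 7.76% of all tested genes. Leaving out each control or clone 1 array in turn gave 14 to 17 in clone 1, with 24.5% to 26.6% of all tested genes passing. It gave 11 to 14 in clone 3 (24.0% to 29.4% of all tested genes) and 10 to 11 in both (18.6% to 21.7%). The wider set had 16 to 18 in both, and between the clones there were 0 of the 28. The lowest counts in clone 3 and in both came without clone 3 replicate 1. Between the clones 0 of the 28 passed in any setting run. Over the named genes, no difference past the threshold changed sign in any setting: 1908 values kept their side of the threshold, 112 no longer passed and 12 newly passed. The block leaves fewer degrees of freedom, and only clone 1 spans both codes, so the clone 3 values rest on it. Leaving out a clone 3 array leaves 1, assumed to vary like the other groups. No paired analysis was possible because the labels carry no replicate numbers shared between groups.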

Other observations

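Of the wider set of cholesterol genes, Nr1h3, Cyp27a1 and Cyp7b1 did not enter the test, since no group had them above background on every array. Apoe had 1 outlier spot left out on a clone 1 array, so its mean there rests on 2 arrays.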
